A study of Mus musculus with 96 samples.

Results

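Mice whose clock ran in the epidermis but not in the brain (EpiRE) were set against mice whose clock ran in the brain but not in the epidermis (BRE), and messenger RNA was read in the epidermis of both. The comparison takes 48 of the 96 libraries of the series, 24 per genotype, and matches them by time of day. EpiRE mice carried Arntl stopFL/stopFL, K14Cre tg/wt and Syt10-Cre wt/wt. BRE mice carried Arntl stopFL/stopFL, K14Cre wt/wt and Syt10-Cre tg/wt. Both groups therefore share a stop cassette in both copies of Arntl, and Cre removes it only where the driver is active, in keratin 14 cells for K14Cre and in the brain for Syt10-Cre. Tissues outside the driver's reach keep the cassette in either genotype. All were male C57BL/6 mice of 8 weeks, housed at 12 h of light and 12 h of dark with free access to chow. Back-skin epidermis was freed with dispase and taken from 4 mice per genotype at each of 6 zeitgeber times, ZT0 (lights on), ZT4, ZT8, ZT12 (lights off), ZT16 and ZT20. WT mice (Arntl wt/wt with both Cre transgenes) and RERE mice (stopFL/stopFL with both Cre transgenes, clock in brain and epidermis) of the same series are quoted below as side values only.

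The circadian clock is a feedback loop of transcription. The activators BMAL1 (encoded by Arntl) and CLOCK or NPAS2 bind E-boxes and switch on the Per, Cry and Nr1d genes, whose PER and CRY proteins then block the activators, while the REV-ERB receptors from Nr1d1 and Nr1d2 repress Arntl, Npas2 and Cry1 and compete with ROR receptors. The PAR bZIP factors DBP, TEF and HLF carry the rhythm to output genes, and NFIL3 opposes them. In epidermis the daily cycle is known to bear on the timing of DNA replication in basal keratinocytes. The brain sets feeding, activity, body temperature and hormone rhythms that reach skin from outside.

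The labelled tissue was checked first. Median levels of the basal keratins Krt5 and Krt14 were 6295 and 2793 RPKM in EpiRE and 6243 and 3024 RPKM in BRE, and those of the suprabasal keratins Krt1 and Krt10 were 2420 and 6937 RPKM against 2362 and 7607 RPKM. RPKM is reads per kilobase of gene and per megaread of library, a unit inferred from the values. Summed endothelial markers lay at 0.825 and 0.807 RPKM (medians of EpiRE and BRE), fibroblast markers at 12.3 and 13.0 RPKM, and Langerhans cell markers at 120.4 and 120.6 RPKM. T cell markers summed to 69.7 RPKM in EpiRE (range 44.0 to 93.9) and to 83.9 RPKM in BRE (50.7 to 108.5). Estimated depth was 12.0 to 19.3 megareads per EpiRE library and 12.0 to 19.1 per BRE library. In 5 libraries (EpiRE ZT8 mouse 4 and ZT12 mouse 3; BRE ZT0 mouse 1, ZT8 mouse 1 and ZT12 mouse 4) gene values deviated from their group by an SD of 0.254 to 0.292 log2 against a median of 0.2 log2 over the 48 libraries, and results that turn on them are given with and without them. The tables of the genotypes were normalized separately, so that the genotype and its table cannot be told apart in a level. A constant of 0.058 log2, the median EpiRE-minus-BRE difference of all tested genes, was removed from every level difference below, while RPKM values per mouse are given as deposited. A gene is called where its limma p, adjusted over all 11700 tested genes by Benjamini-Hochberg, was below 0.05, and a level call also asks for 1.5-fold unless any size is stated. P-values measure the spread between mice of these groups. In bulk tissue, fewer cells of a type and less RNA per cell cannot be told apart.

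Clock gene promoters are shown here because the activators that differ between the genotypes act through E-boxes. Only the 4 clock genes whose promoter held the E-box CACGTG are shown. Each run is the 250 bases before the gene's start in RefSeq (build GRCm38.p6), written 5′ to 3′ on the gene's strand, with the E-box CACGTG in capitals. The windows are those of Tef (chr15:81802423-81802672, plus strand, E-box at -127 from the start), Ciart (chr3:95882229-95882478, minus strand, at -116, -58 and -44), Cry1 (chr10:85185055-85185304, minus strand, at -60) and Per1 (chr11:69098699-69098948, plus strand, at -166).
Tef: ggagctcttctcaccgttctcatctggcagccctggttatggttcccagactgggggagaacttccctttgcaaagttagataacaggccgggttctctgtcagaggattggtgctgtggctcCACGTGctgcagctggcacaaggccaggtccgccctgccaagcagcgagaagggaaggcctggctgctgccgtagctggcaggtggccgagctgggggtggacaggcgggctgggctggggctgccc
Ciart: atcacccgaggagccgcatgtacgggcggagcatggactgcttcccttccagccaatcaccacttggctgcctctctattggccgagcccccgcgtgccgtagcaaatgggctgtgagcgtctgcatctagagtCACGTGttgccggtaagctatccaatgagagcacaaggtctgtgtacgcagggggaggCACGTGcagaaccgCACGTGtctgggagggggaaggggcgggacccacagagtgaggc
Cry1: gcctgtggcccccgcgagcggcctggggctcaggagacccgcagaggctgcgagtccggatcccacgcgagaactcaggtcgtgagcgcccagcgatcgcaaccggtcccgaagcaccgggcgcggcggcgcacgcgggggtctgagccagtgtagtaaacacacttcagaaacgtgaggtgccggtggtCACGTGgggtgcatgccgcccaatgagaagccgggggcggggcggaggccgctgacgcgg
Per1: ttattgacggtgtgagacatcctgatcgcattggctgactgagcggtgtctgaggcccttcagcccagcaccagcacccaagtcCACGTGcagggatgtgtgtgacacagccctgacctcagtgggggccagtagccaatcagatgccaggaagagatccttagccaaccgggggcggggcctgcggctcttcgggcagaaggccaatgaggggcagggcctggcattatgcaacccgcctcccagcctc
Motifs were counted in longer windows than the runs shown, which also take in bases after the start. Of the 18 tested clock genes, 15 had a window, and 4 of them (26.7%) held CACGTG, against 12.2% of the 9017 tested genes with a window. The windows of Nr1d1, Nr1d2, Per3 and Dbp did not hold CACGTG. The form CACGTT (searched on both strands, as all motifs were) stood in 20% of the clock genes and 6.3% of all genes. The ROR core TAGGTCA stood in the windows of Arntl and Nfil3 (13.3% against 2.2%), and the D-box TTATGTAA in that of Per3 (6.7% against 0.6%). These are matches of letters, not measured binding.

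Among the activators, Arntl itself (chr7:113207465-113314126, plus strand, mm10) is the gene the cassette targets. Reads per gene do not show whether its transcript is functional, so its level does not check the labels. In EpiRE the 4 mice read 9.90, 13.9, 9.78 and 13.3 RPKM at ZT12 and 19.3, 19.8, 20.7 and 24 RPKM at ZT20. In BRE they read 11.7, 11.6, 13.2 and 11.4 RPKM at ZT12 and 13.4, 12.8, 13.5 and 12.4 RPKM at ZT20. All 4 EpiRE mice at ZT20 lay above all 24 BRE mice, which spanned 11.4 to 14.6 RPKM over the day. The fitted 24 h rhythm (peak-to-trough size in log2) was 0.76 ± 0.11 (SE) in EpiRE with its peak at ZT22.0, against 0.18 in BRE, and the difference in rhythm passed the test (limma adjusted p = 0.0289, n = 24 mice per genotype). That adjusted p was 0.0803 without the 5 deviating libraries, 0.0520 without EpiRE ZT12 mouse 1, 0.0509 without EpiRE ZT12 mouse 3, and 0.0749 to 0.201 without replicate number 1, 3 or 4. The day-long mean was 0.17 ± 0.06 log2 higher in EpiRE (adjusted p = 0.0230).

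Npas2, whose protein can stand in for CLOCK as the partner of BMAL1 (chr1:39193731-39363236, plus strand), was lower in EpiRE at all times. EpiRE mice read 2.23, 2.81, 3.29 and 3.36 RPKM at ZT8 and 6.85, 6.43, 9.10 and 7.41 RPKM at ZT20, whereas all 24 BRE mice lay between 13.2 and 21.1 RPKM. No EpiRE mouse reached the lowest BRE mouse. The day-long difference was -1.98 ± 0.10 log2, a level 3.95-fold lower in EpiRE (adjusted p = 3.36e-20). Clock differed by -0.20 ± 0.03 log2 and Rora by 0.19 ± 0.06 log2, both past the test but under 1.5-fold. The Npas2 difference in rhythm gave a limma adjusted p of 0.0560, and one of 0.107 without the 5 deviating libraries. It passed (0.0135 to 0.0458) without any 1 of EpiRE ZT0 mice 1 and 4, ZT12 mouse 4 and ZT16 mouse 3 and BRE ZT12 mouse 4. Of the 5 activators, 1 differed in rhythm (Arntl), and 2, Npas2 among them, were lower at 1.5-fold or more. Over all genes 14.4% differed in rhythm and 0.889% were lower by that much.

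Nr1d1, the gene of REV-ERBα (chr11:98767932-98775333, minus strand), had the largest day-long level difference of all 11700 tested genes. EpiRE mice read 63.2, 43.7, 73.2 and 112 RPKM at ZT8 and 57.8, 25.4, 26.9 and 19.3 RPKM at ZT20. BRE mice read between 3.30 and 5.07 RPKM at every time. The lowest EpiRE mouse stood far above the highest BRE mouse, and the level was 11.4-fold higher in EpiRE (3.51 ± 0.11 log2, adjusted p = 3.81e-28). The 3′ end of Nr1d1 overlaps Thra on the other strand, and the strand setting of the counting is not given in the sources used here. In WT and RERE mice the medians were 50.1 and 47.0 RPKM. The Nr1d1 rhythm was 1.01 ± 0.23 in EpiRE with a peak at ZT6.09 and 0.15 in BRE (adjusted p of the difference = 0.0359; without the 5 deviating libraries 0.0581). It missed the threshold (0.0516 to 0.0655) without any 1 of EpiRE ZT8 mouse 4, ZT16 mouse 3 and ZT20 mice 2, 3 and 4 and BRE ZT4 mouse 1 and ZT20 mouse 1, and (0.145 to 0.219) without replicate number 2, 3 or 4. Its paralog Nr1d2 (chr14:18204054-18239127, minus strand) spanned 11.4 to 40.6 RPKM in EpiRE and 2.24 to 4.45 RPKM in BRE, a level 6.90-fold higher (2.79 ± 0.09 log2, adjusted p = 4.68e-28). Its difference in rhythm gave an adjusted p of 0.0550, one of 0.0482 without the 5 deviating libraries, and one of 0.0317 to 0.0485 without any 1 of EpiRE ZT0 mice 1 and 3, ZT8 mouse 2 and ZT16 mice 1 and 2 and BRE ZT0 mouse 1, ZT4 mouse 3, ZT12 mouse 4 and ZT16 mouse 1.

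Among the period genes, which encode the repressor's PER subunits, Per3 (chr4:151003652-151044665, minus strand) had the smallest p of both tests. Its EpiRE mice read 16.9, 16.6, 14.7 and 18.2 RPKM at ZT8 and 6.20, 6.27, 6.35 and 4.60 RPKM at ZT20, and BRE mice stayed at 1.72 to 2.89 RPKM. The groups did not overlap at any time. The level was 4.54-fold higher in EpiRE (2.18 ± 0.10 log2, adjusted p = 1.44e-22), and the rhythm was 1.48 ± 0.20 with a peak at ZT10.3 against 0.08 in BRE (adjusted p of the difference = 0.000796). Per2 spanned 0.687 to 15.0 RPKM in EpiRE and 2.16 to 9.82 RPKM in BRE. Its mean did not pass the test (0.14 ± 0.20 log2, adjusted p = 0.639), while its rhythm did, at 2.15 ± 0.39 with a peak at ZT9.91 in EpiRE against 0.48 in BRE (adjusted p = 0.0297; without the 5 deviating libraries 0.0658). Without BRE ZT8 mouse 4 the adjusted p was 0.0564, and without replicate number 1, 2 or 4 it was 0.0562 to 0.180. Per1 passed neither test. Its rhythm was 0.86 in EpiRE and 0.80 in BRE (adjusted p of the difference = 0.757), and its level difference was 0.28 ± 0.16 log2 (adjusted p = 0.208).

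The cryptochromes, the other subunits of the repressor, differed in separate ways. Cry1 (chr10:85131700-85185064, minus strand) read 8.29, 11.9, 7.75 and 7.83 RPKM in EpiRE at ZT0 and 40.8, 41.3, 44.0 and 44.1 RPKM in BRE. Over the day EpiRE spanned 7.62 to 20.2 RPKM and BRE 30.3 to 44.1 RPKM, with no overlap. Cry1 was 3.29-fold lower in EpiRE (-1.72 ± 0.08 log2, adjusted p = 9.73e-23), and its WT and RERE medians were 13.3 and 12.6 RPKM. Its difference in rhythm did not pass (adjusted p = 0.212). Cry2 differed little in level (-0.07 ± 0.05 log2, adjusted p = 0.343) but varied by 0.54 ± 0.10 in EpiRE, with a peak at ZT8.34, against 0.17 in BRE (adjusted p of the rhythm difference = 0.00271; without replicate number 4 0.0551). Ciart, a repressor of the activators, was higher in EpiRE (1.04 ± 0.13 log2, adjusted p = 2.91e-08). Of the 9 repressors tested, 4 differed in rhythm (Per2, Per3, Cry2 and Nr1d1; 14.4% of all genes did). At 1.5-fold or more, 4 were higher (Nr1d1, Nr1d2, Per3 and Ciart) and Cry1 was lower, against 0.521% and 0.889% of all genes. Bhlhe40 passed neither test.

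Dbp, a direct target of the activators (chr7:45705088-45710203, plus strand), read 37.1, 38.5, 37.3 and 65.4 RPKM in EpiRE at ZT8 and 17.9, 10.4, 8.76 and 4.67 RPKM at ZT20. BRE spanned 2.74 to 5.69 RPKM over the whole day. Only 2 EpiRE mice (ZT16 mouse 3 at 4.91 RPKM and ZT20 mouse 4 at 4.67 RPKM) fell inside the BRE range. Its level was 5.12-fold higher in EpiRE (2.35 ± 0.16 log2, adjusted p = 6.63e-16), and its rhythm was 1.92 ± 0.32 with a peak at ZT8.67 against 0.16 in BRE (adjusted p of the difference = 0.00967; without replicate numbers 2 and 4 in turn, 0.0869 and 0.135). Tef followed with a rhythm of 1.08 ± 0.16 and a peak at ZT9.31 against 0.09 (adjusted p = 0.00288) and a level 0.86 ± 0.08 log2 higher. Hlf was 0.49 ± 0.06 log2 higher. Its difference in rhythm gave a limma adjusted p of 0.0508, and one of 0.0765 without the 5 deviating libraries. It passed (0.0258 to 0.0492) without any 1 of 16 mice. Nfil3, the opposing repressor, was lower in EpiRE (-1.12 ± 0.19 log2, adjusted p = 1.59e-05). Of 15 tested genes from a list of clock outputs shared across tissues, 3 differed in rhythm (Pdxk, Tns4 and Tmem57), 4 were higher and 2 lower at any size, none by 1.5-fold; over all genes 14.4% differed in rhythm, 9.6% were higher and 16.1% lower. At ZT16, EpiRE mouse 3 stood apart from its 3 group members in the clock genes, with low Dbp (4.91 RPKM), Per3 (5.17 RPKM) and Nr1d1 (20.5 RPKM) and high Npas2 (9.98 RPKM) and Arntl (20.5 RPKM).

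**Figure D1:**
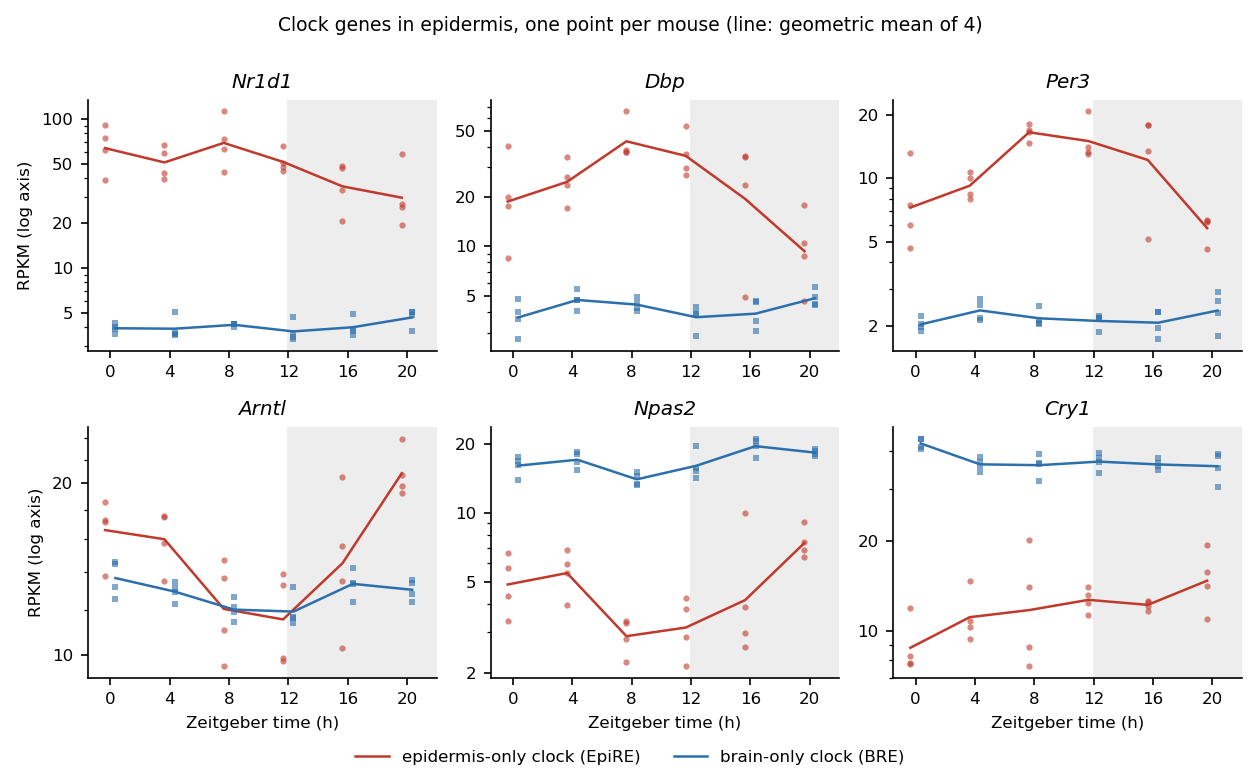
Levels of Nr1d1, Dbp, Per3, Arntl, Npas2 and Cry1 (RPKM, log axis) by zeitgeber time, with 1 point per mouse and lines through the geometric means of 4 mice per genotype; the dark phase is shaded. Nr1d1 and Per3 in EpiRE and Cry1 and Npas2 in BRE lie above every mouse of the other genotype, and the BRE lines of Nr1d1, Dbp and Per3 are nearly flat.

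Across all genes the day-long level differed by at least 1.5-fold for 165 of 11700 (1.41%), 61 higher in EpiRE (0.521%) and 104 lower (0.889%). With no constant removed the split was 68 higher and 75 lower. At any size, 3008 genes (25.7%) passed the test, against a median absolute difference of only 0.07 log2 over all genes. The clock lists held 6 of the 61 higher genes and 4 of the 104 lower ones. The ranges of the 24 EpiRE and 24 BRE mice did not overlap in 14 genes (0.12% of those tested), 8 higher (0.0684%) and 6 lower (0.0513%). They included Nr1d1, Nr1d2, Per3, Akr1c18, Arsi, Sncg, Cdc25b and Mmp2 on the higher side and Npas2, Cry1, Ttc9, Mrgprb2 and Agpat3 on the lower side. Arsi, Sncg, Ttc9, Mrgprb2 and Agpat3 lie outside the rule for named genes and are listed because the count is given.

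Akr1c18, which encodes the enzyme that inactivates progesterone (chr13:4132615-4150654, minus strand), spanned 4.31 to 28.4 RPKM in EpiRE. In BRE it read 2.33, 3.86, 1.01 and 2.06 RPKM at ZT0 and 0.174, 1.05, 0.168 and 0.307 RPKM at ZT8. All EpiRE mice exceeded all BRE mice, and the level was 10.7-fold higher (3.43 ± 0.22 log2, adjusted p = 4.77e-17). Its WT and RERE medians were 17.7 and 10.5 RPKM. Krt2, a keratin of the upper epidermis (chr15:101810689-101818169, minus strand), spanned 1.35 to 48.1 RPKM in EpiRE and 0.347 to 1.72 RPKM in BRE, so that the groups met only at their edges (3.10 ± 0.30 log2, adjusted p = 5.71e-11). Cdc25b, a phosphatase that activates cyclin-dependent kinases at entry into mitosis, spanned 18 to 31.3 RPKM against 4.90 to 11.8 RPKM (1.48 ± 0.08 log2, adjusted p = 2.12e-20). Mmp2, a gelatinase, was 1.01 ± 0.05 log2 higher, and Ngfr, a neurotrophin receptor, 1.07 ± 0.09 log2 higher. The epidermal transglutaminase Tgm3 and the taurine transporter Slc6a6 were higher by 0.89 ± 0.15 and 0.85 ± 0.09 log2.

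Among the genes lower in EpiRE, Abhd12b (-1.24 ± 0.10 log2) and Serpina3b (-1.32 ± 0.16 log2) were lower in day-long level, as were tissue factor F3 (-1.20 ± 0.18 log2), the epidermal growth factor family ligand Epgn (-1.09 ± 0.17 log2), Calcb (-1.08 ± 0.11 log2), the lipid hydrolase Pnpla3 (-0.90 ± 0.13 log2) and Dab1 (-0.89 ± 0.07 log2), each past the test.

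Matched by time, the fewest genes were called at ZT20 and the most at ZT12 and ZT16. At least 1.5-fold differences were called for 118 genes at ZT0 (1.01%), 135 at ZT4 (1.15%), 314 at ZT8 (2.68%), 429 at ZT12 (3.67%), 461 at ZT16 (3.94%) and 62 at ZT20 (0.53%). At ZT8, 219 of these were lower in EpiRE (1.87%) and 95 higher (0.812%), and at ZT16, 331 were higher (2.83%) and 130 lower (1.11%). The median gene differed from the day-long constant by -0.048 log2 at ZT0 and by 0.065 log2 at ZT12, the extremes of the 6 times. With the constant removed separately at each time the split was 46 higher and 47 lower at ZT0 (40 and 78 before, 0.342% and 0.667%), 54 and 59 at ZT4 (50 and 85 before, 0.427% and 0.726%) and 179 and 244 at ZT12 (259 and 170 before, 2.21% and 1.45%), so the direction at ZT12 depends on that choice. Median-of-ratios scaling gave 46 higher and 56 lower at ZT0 and 199 and 219 at ZT12. Without the 5 deviating libraries the counts were 483 at ZT0, 128 at ZT8, 652 at ZT12 and 515 at ZT16, so that ZT12 then had more calls than ZT16.

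**Figure D2:**
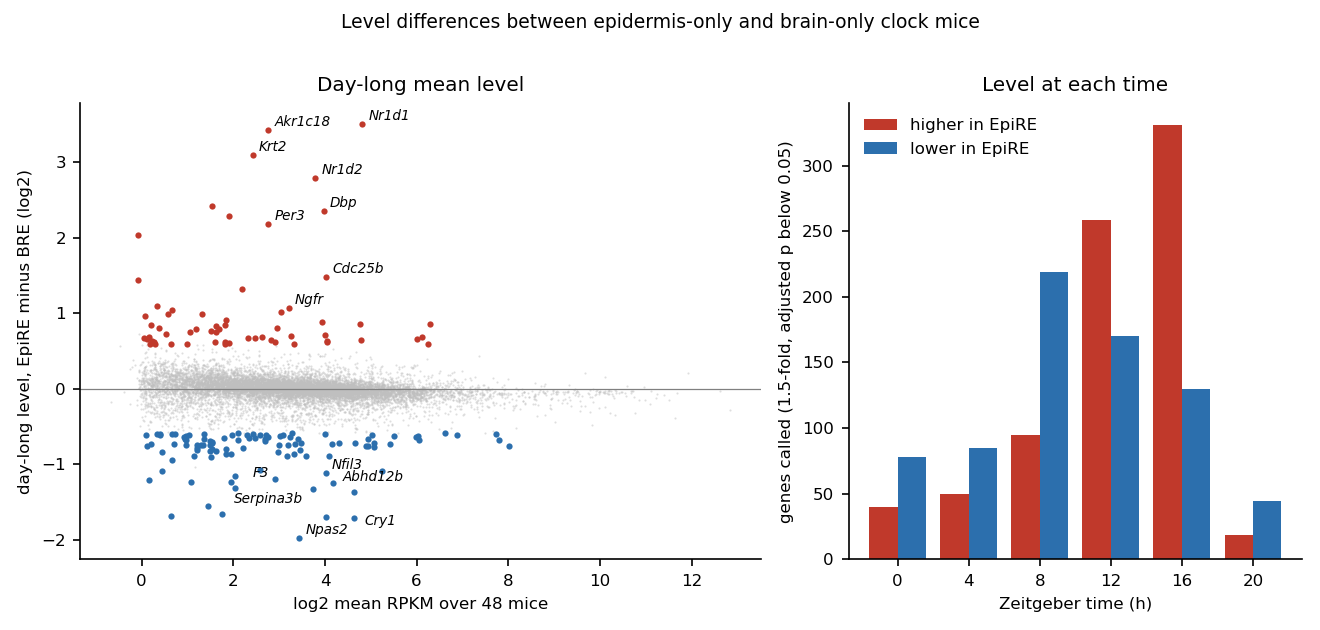
Left, day-long level difference EpiRE minus BRE (log2) of each tested gene against its log2 mean RPKM over 48 mice, with the 165 called genes in red (higher in EpiRE) and blue (lower). Right, number of genes called at each zeitgeber time, rising to 429 at ZT12 and 461 at ZT16 and falling to 62 at ZT20.

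Rhythm differed between the genotypes for 1684 genes (14.4% of 11700). The fitted size was larger in BRE for 1275 of them (10.9%) and larger in EpiRE for 409 (3.5%). Fitted alone, 319 genes were rhythmic in EpiRE (2.73%) and 1951 in BRE (16.7%), and 142 were called in both. Among the same 11700 tested genes, the authors' deposited JTK_CYCLE q-values were under 0.05 for 19 in EpiRE and 689 in BRE, with 4 in both. Those counts rest on few mice. Without replicate number 2 at every time the rhythm difference fell to 395 genes, the EpiRE calls to 8 and the BRE calls to 161. Without replicate 1 no EpiRE rhythm passed by limma (1816 genes at an unadjusted p under 0.05), and without the 5 deviating libraries 2703 genes differed in rhythm, 196 were rhythmic in EpiRE and 3835 in BRE.

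Where both genotypes had a rhythm, most fitted peaks were far apart. Of the 142 genes called in both, 90 (63.4%) had fitted peaks at least 8 h apart and 38 under 4 h apart, with a median distance of 9.83 h. Over all 11700 tested genes, rhythmic or not, 4435 had fitted peaks at least 8 h apart, and the median distance was 6.6 h. The test of the rhythm difference itself favours genes with distant peaks. Among the 103 of the 142 genes whose rhythm differed, 84 (81.6%) peaked between ZT12 and ZT18 in EpiRE, and 80 (77.7%) peaked between ZT0 and ZT6 in BRE. The 895 differing genes called in BRE alone also favoured the first hours of light, with 537 (60%) at ZT0 to ZT6. Of the 102 called in EpiRE alone, 67 (65.7%) peaked at ZT12 to ZT18. All 12 genes with the smallest p of the rhythm difference outside the clock lists (among them Tk1, Chaf1b, Topbp1, Rnaseh2b, Mthfd1l, Lig1, Cdk2, Chtf18, Dscc1, Uhrf1 and Pola1) had peaks at ZT12.0 to ZT13.6 in EpiRE and at ZT0.283 to ZT3.20 in BRE.

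**Figure D3:**
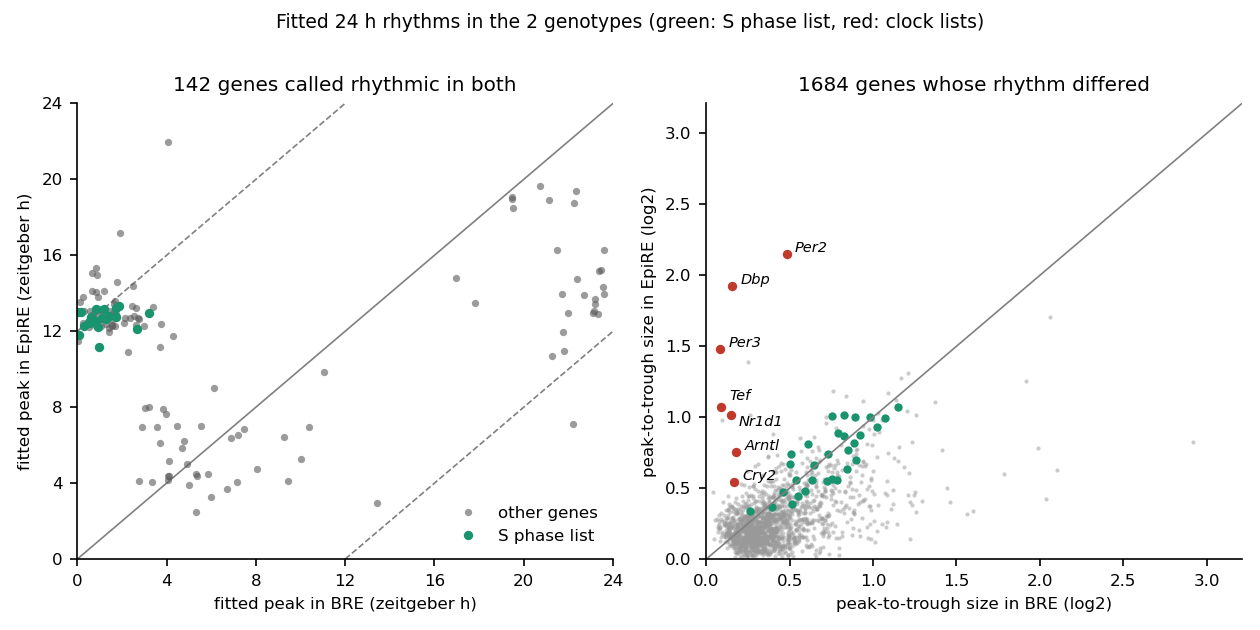
Left, fitted peak in EpiRE against that in BRE (zeitgeber hours) of the 142 genes called rhythmic in both, with lines for equal peaks (solid) and peaks 12 h apart (dashed). Right, peak-to-trough sizes (log2) of the 1684 genes whose rhythm differed. Genes of the S phase list (green) cluster near ZT13 in EpiRE and near ZT1 in BRE with similar sizes, while the clock genes (red) lie far above the diagonal.

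Nearly all DNA replication and S phase genes differed in rhythm. They encode the MCM helicase, the polymerases and clamp of the fork, nucleotide enzymes and chromatin assembly factors, and are transcribed as cells enter S phase. Of 31 tested members, 30 differed in rhythm, against 14.4% of all genes, and 23 were called rhythmic in both genotypes. The 30 peaked at ZT11.19 to ZT13.95 in EpiRE (median ZT12.72) and at ZT0.02 to ZT3.20 in BRE (median ZT0.95), a distance of 9.45 to 12 h. The median rhythm size of the 30 was 0.72 log2 in EpiRE and 0.75 log2 in BRE. Tyms was the member not called (adjusted p = 0.298).

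Tk1, the thymidine kinase of S phase (chr11:117815526-117826092, minus strand), read 28.1, 22.5, 27.1 and 15.3 RPKM in EpiRE at ZT12 and 27.1, 23.3, 19.8 and 25.1 RPKM at ZT16. In BRE it read 12.7, 8.02, 11.5 and 15.4 RPKM at ZT12, 14.3, 8.66, 9.62 and 9.97 RPKM at ZT16, and 25.1, 18.1, 18.6 and 20.2 RPKM at ZT4. The groups were separate at ZT16 and met at ZT12 through 1 mouse each. Tk1 varied by 0.82 ± 0.15 with a peak at ZT13.0 in EpiRE and by 0.89 ± 0.15 with a peak at ZT3.20 in BRE (adjusted p of the difference = 1.34e-05), and was 1.12 ± 0.18 log2 higher in EpiRE at ZT16 (adjusted p = 7.62e-05). Chaf1b, a subunit of chromatin assembly factor 1 (chr16:93883901-93906115, plus strand), read 2.49, 1.90, 1.77 and 1.81 RPKM in EpiRE at ZT0 and 4.12, 4.23, 3.27 and 4.49 RPKM at ZT16. In BRE it read 1.82, 3.34, 3.57 and 4.36 RPKM at ZT0 and 2.78, 1.43, 2.04 and 2.11 RPKM at ZT16. All EpiRE mice exceeded all BRE mice at ZT16, and 3 of 4 BRE mice exceeded all EpiRE mice at ZT0. Its peaks were at ZT12.6 and ZT0.623, with sizes of 1.00 ± 0.17 and 0.89 ± 0.17 (adjusted p = 1.34e-05).

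Peaks were placed likewise (EpiRE first) for the helicase subunits Mcm2 (ZT13.0 and ZT0.162, adjusted p = 5.63e-05) and Mcm6 (ZT12.4 and ZT0.588, adjusted p = 8.51e-05), the ligase Lig1 (ZT12.8 and ZT1.41) and the methylation maintenance factor Uhrf1 (ZT13.2 and ZT0.857). The mean of the 31 genes, centred within each genotype, was 0.34 ± 0.32 log2 (SD, n = 4) in EpiRE at ZT12 and -0.29 ± 0.32 in BRE. At ZT0 it was -0.28 ± 0.16 in EpiRE and 0.26 ± 0.31 in BRE. At ZT4 it was -0.23 ± 0.31 and 0.34 ± 0.26. RERE mice read 0.40 ± 0.18 at ZT12 and -0.24 ± 0.13 at ZT0, and WT mice 0.33 ± 0.13 and -0.30 ± 0.08. WT did not follow EpiRE at every time. At ZT20 the mean was -0.20 ± 0.23 in EpiRE, 0.12 ± 0.08 in BRE, -0.28 ± 0.23 in RERE and 0.21 ± 0.07 in WT. Matched by time, 21 of the 31 genes were at least 1.5-fold higher in EpiRE at ZT12 (2.21% of all genes were) and 17 at ZT16 (2.83%); with the constant removed at each time these were 19 and 15. In the opposite direction, 0 of 31 were at least 1.5-fold lower in EpiRE at ZT0 (0.667% of all genes were), 2 at ZT4 (0.726%) and 0 at ZT20 (0.376%). The median differences were -0.431 log2 at ZT0 and -0.444 log2 at ZT4. At these times few genes of any kind were called lower. The day-long level of no S phase gene differed by 1.5-fold.

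The rhythm difference was called for 29 to 31 S phase genes without any 1 replicate number, without any 1 library, or without the 5 deviating libraries. The differentiation genes described next had a list mean in BRE of 0.36 ± 0.12 log2 at ZT12 and -0.19 ± 0.34 at ZT0, and their part in the S phase result was not tested. Of the 28 G2 and mitosis genes, 1 differed in rhythm (14.4% of all genes did), the kinase Ttk (adjusted p = 0.00868). That count was 3 without the 5 deviating libraries, where Bub1 also passed (adjusted p = 0.0357), 0 without replicate number 2, and 2 or 3 without any 1 of EpiRE ZT0 mouse 2, ZT4 mouse 4, ZT12 mouse 4, ZT16 mouse 2 and ZT20 mice 1 and 3 and BRE ZT0 mouse 1, ZT8 mouse 4, ZT12 mice 1 and 4 and ZT16 mouse 1. Fitted alone, 2 of the 28 were called rhythmic in BRE (Ttk and Bub1), where 16.7% of all genes were. In EpiRE 0 were called, near the 2.73% of all genes called there. The median size of the 28 genes was 0.23 log2 in EpiRE and 0.60 log2 in BRE.

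**Figure D4:**
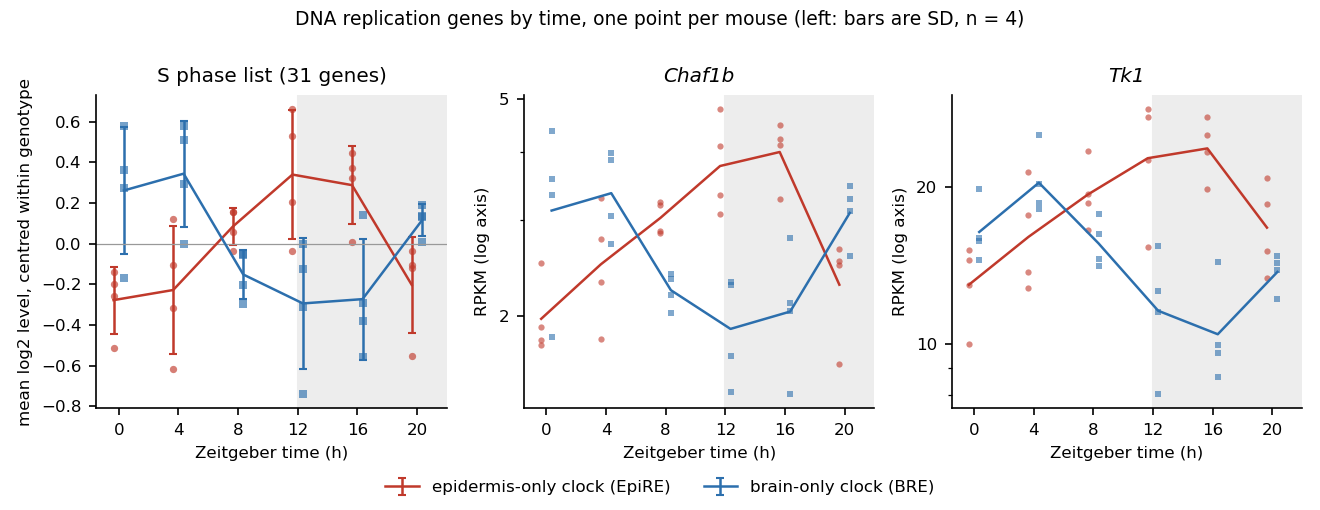
Left, mean log2 level of the 31 S phase genes, centred within genotype, by zeitgeber time, with 1 point per mouse and bars for the mean ± SD of 4; middle and right, Chaf1b and Tk1 in RPKM (log axis) with lines through the geometric means. EpiRE is highest at ZT12 (0.34) and ZT16 (0.29), when BRE is lowest (-0.29 and -0.27).

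Promoters of S phase genes are shown for the E2F site, the element of the factors that drive S phase transcription. The runs are built as above, with TTTGGCGC or its reverse complement GCGCCAAA in capitals, and come from Pola1 (chrX:93632156-93632405, minus strand, at -138) and Mcm6 (chr1:128359706-128359955, minus strand, at -110 and -47).
Pola1: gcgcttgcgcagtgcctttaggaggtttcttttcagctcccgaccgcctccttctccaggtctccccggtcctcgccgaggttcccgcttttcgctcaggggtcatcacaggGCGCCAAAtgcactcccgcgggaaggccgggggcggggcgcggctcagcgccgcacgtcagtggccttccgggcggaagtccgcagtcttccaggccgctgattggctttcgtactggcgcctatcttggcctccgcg
Mcm6: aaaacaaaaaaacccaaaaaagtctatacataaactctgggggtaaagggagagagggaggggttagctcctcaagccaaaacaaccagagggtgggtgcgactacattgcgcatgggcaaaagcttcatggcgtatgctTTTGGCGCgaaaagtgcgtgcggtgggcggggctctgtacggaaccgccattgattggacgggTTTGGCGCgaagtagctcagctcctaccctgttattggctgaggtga
Of 31 S phase genes, 25 had a window, again counted with bases after the start. TTTGGCGC or the other form searched, TTTCCCGC, stood in 9 of the 25 (36.0%), against 3.5% of all genes with a window, and in 0 of the 15 clock genes. These forms were chosen after the S phase result was seen. The E-box CACGTG stood in 4 of the 25 (16%, against 12.2%).

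Keratinocyte differentiation genes, which build the cornified envelope and its lipids, tended to lower levels in EpiRE. At any size, 18 of 27 tested members were lower and 2 higher (16.1% and 9.6% of all genes), and the median member differed by -0.34 log2. Matched by time, 9 were lower at ZT8 (5.64% of all genes were), 14 at ZT12 (5.2%) and 2 at ZT16 (4.95%). At ZT0, ZT4 and ZT20, 0 were lower (1.69%, 2.5% and 0.709% of all genes). The median differences there were 0.207, -0.118 and -0.208 log2. Involucrin (Ivl), a precursor of the envelope (chr3:92570902-92573735, minus strand), read 20.6, 19.6, 42.2 and 18 RPKM in EpiRE and 37.5, 88.9, 85.4 and 39.9 RPKM in BRE at ZT16. The groups overlapped there through EpiRE mouse 3. Its level differed by -0.66 ± 0.14 log2 (adjusted p = 0.000316), and its rhythm was 1.12 with a peak at ZT14.1 in BRE against 0.49 with a peak at ZT23.4 in EpiRE (adjusted p = 0.0210). The lipoxygenase Aloxe3, which makes barrier lipids, varied by 0.98 with a peak at ZT13.1 in BRE against 0.25 in EpiRE (adjusted p = 0.00606), and the rhythms of Sbsn and Asprv1 were likewise larger in BRE.

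Of the 27 genes, 11 differed in rhythm (14.4% of all genes did), 10 of them larger in BRE (10.9%), and 14 were called rhythmic in BRE (16.7%). The 0 called in EpiRE is near the 2.73% of all genes called there. The count moved with single mice, from 6 without EpiRE ZT0 mouse 4 and 7 without BRE ZT8 mouse 4 to 13 without BRE ZT0 mouse 1. It was 0, 1 and 5 without replicate numbers 2, 3 and 4, and 16 without the 5 deviating libraries. At ZT8 the EpiRE list mean was -0.34 ± 0.78 log2 with mouse 4 at -1.5, while BRE stood at 0.31 ± 0.23. In the basal layer list (integrins, laminins and basal keratins), 6 of 14 genes differed in rhythm (14.4% of all genes did), all larger in BRE (10.9%), with Itga6 at 0.44 and a peak at ZT19.7 against 0.15 (adjusted p = 0.00677). That count ranged from 0 without replicate number 2 to 10 without BRE ZT0 mouse 1.

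Cholesterol synthesis and uptake genes were lower in EpiRE by small amounts. Of 20 tested, 18 were lower at any size (16.1% of all genes were) and 0 by 1.5-fold, with a median of -0.31 log2 and a range of -0.52 to 0.02. Farnesyl diphosphate synthase Fdps spanned 42.1 to 115.3 RPKM in EpiRE and 79.1 to 172.4 RPKM in BRE (-0.52 ± 0.08 log2, adjusted p = 1.53e-06). Phosphomevalonate kinase Pmvk differed by -0.46 ± 0.06 log2 (adjusted p = 1.91e-08). With no constant removed 14 of the 20 were lower. Of the 20, only Mvk differed in rhythm (14.4% of all genes did), a call lost (adjusted p 0.0526 to 0.0653) without any 1 of EpiRE ZT8 mouse 4 and ZT20 mouse 2 and BRE ZT8 mice 2 and 4. The count was 2 or 3 without any 1 of EpiRE ZT4 mouse 3 and ZT20 mouse 3 and BRE ZT8 mouse 1 and ZT20 mouse 4.

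Heat shock genes, which answer to body temperature and protein damage, separated the genotypes at ZT16. The mean of the 16 genes, centred on both genotypes, was 0.31 ± 0.02 log2 in BRE at ZT16 (4 mice from 0.30 to 0.34) and -0.13 ± 0.04 in EpiRE (-0.17 to -0.07), with no overlap. At ZT16, 11 of 16 were lower in EpiRE at any size (4.95% of all genes were), 4 of them by 1.5-fold. At ZT20 no member was called and the median difference was 0.073 log2. At ZT12 the mice overlapped and 3 members were lower at any size (5.2% of all genes were). The small chaperone Hspb1 differed by -0.84 ± 0.14 log2 at ZT12 and -0.82 ± 0.14 log2 at ZT16, and its rhythm was 0.64 ± 0.12 with a peak at ZT13.4 in BRE against 0.22 in EpiRE (adjusted p = 0.00130). Hspa1a and Hspa1b, near-identical copies whose reads may be shared, also differed in rhythm (adjusted p = 0.0112 and 0.0150), as did Hspa4l. These were 4 of the 16 genes (14.4% of all genes differed in rhythm). Of these 4 genes, 3 had the larger rhythm in BRE (10.9% of all genes), and Hspa4l had it in EpiRE (3.5%). The count was 1 without replicate number 2 and stayed at 4 without any 1 mouse. Both cold-inducible RNA-binding genes, known to rise as temperature falls, had fitted peaks in the light phase in both genotypes. These lay at ZT4.92 and ZT6.12 in BRE and at ZT7.27 and ZT7.29 in EpiRE, where 0 of the 2 was called rhythmic. The genotypes differed in size, with a median of 0.95 log2 in BRE and 0.22 log2 in EpiRE. Cirbp varied by 1.01 ± 0.17 there with a peak at ZT4.92 against 0.12 in EpiRE (adjusted p = 0.0178), and was 1.02 ± 0.15 log2 higher in EpiRE at ZT16 (adjusted p = 9.12e-06). Rbm3 varied by 0.89 ± 0.09 in BRE against 0.32 (adjusted p = 0.00759) and was 0.63 ± 0.09 log2 higher in EpiRE at ZT16.

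**Figure D5:**
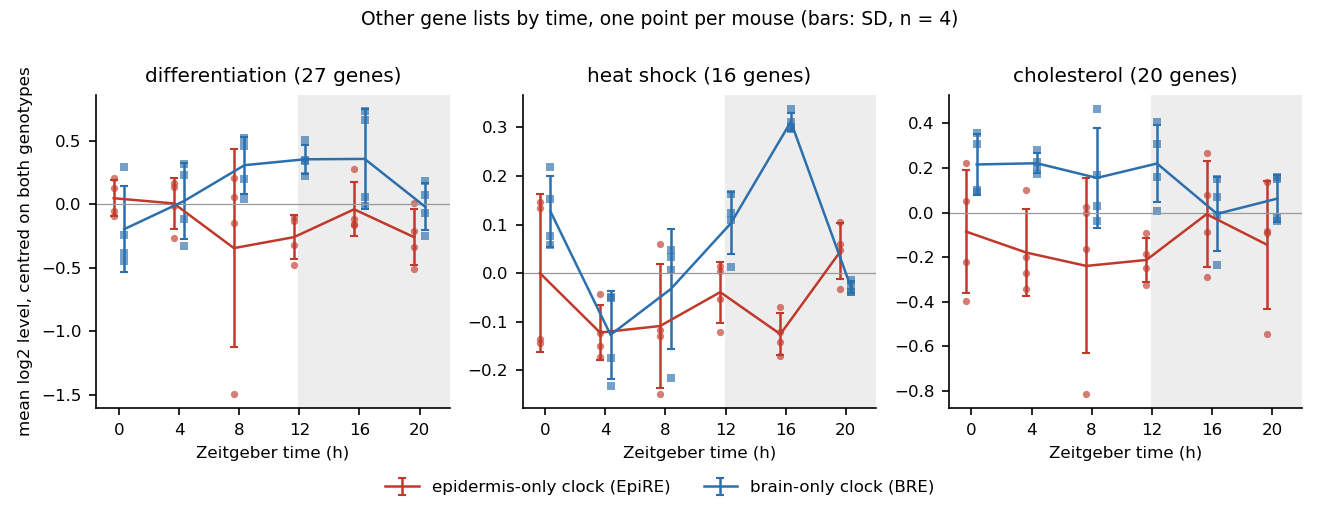
Mean log2 level of the differentiation (27), heat shock (16) and cholesterol (20) genes, centred on both genotypes, by zeitgeber time, with 1 point per mouse and bars for the mean ± SD of 4. Heat shock genes separate the genotypes at ZT16 (0.31 in BRE, -0.13 in EpiRE), and 1 EpiRE mouse at ZT8 lies at -1.5 in the differentiation panel.

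Nuclear-encoded oxidative phosphorylation genes showed a small daily rhythm in BRE. Of 28 tested, 14 were called in BRE (16.7% of all genes were) and 0 in EpiRE (2.73%). In rhythm 12 differed (14.4%), all larger in BRE (10.9%), and the median size was 0.24 log2 against 0.10. Ndufv1 of complex I varied by 0.22 with a peak at ZT3.78 (adjusted p of the difference = 0.00752), Cyc1 of complex III by 0.31 (adjusted p = 0.00994) and Atp5b of the ATP synthase by 0.25 (adjusted p = 0.0123). The count was 5 with median-of-ratios scaling, 6 without BRE ZT16 mouse 2, and 1 to 9 without any 1 replicate number. Among the largest BRE rhythms that differed were the cytoskeletal gene Ablim3 (1.23 ± 0.20, peak at ZT15.5, against 0.38 in EpiRE, adjusted p = 0.000575), Papln (1.21 ± 0.19 against 0.45, adjusted p = 0.000403) and the soluble interleukin 22 receptor Il22ra2 (1.19 ± 0.26 against 0.65, adjusted p = 0.00255). Glutamine synthetase Glul, a glucocorticoid-induced gene, varied by 1.41 ± 0.23 against 0.77 (adjusted p = 0.0380; without the 5 deviating libraries 0.0585). Its adjusted p was 0.0503 to 0.0699 without any 1 of EpiRE ZT0 mouse 4, ZT4 mouse 1, ZT8 mouse 4 and ZT16 mouse 4 and BRE ZT8, ZT12 and ZT16 mouse 2. Fkbp5, also induced by glucocorticoids, varied by 2.03 ± 0.56 against 0.70, which did not pass (adjusted p = 0.0872; without EpiRE ZT12 mouse 4 0.0303).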

How the data were processed

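Epidermal messenger RNA was sequenced from 96 mice, and the 48 of EpiRE and BRE were compared. Per the submitters' processing notes the tools were Trimmomatic 0.36, HISAT2 2.2.1, SAMtools 1.3.1, featureCounts 1.6.0 and edgeR, with mm10. The deposited expression values are log2 values per gene and library, read here as log2 RPKM with a prior count, which was inferred from the values; 1 table per genotype was normalized separately. The authors' deposited JTK_CYCLE q-values were used as counts only. A further 96 columns of per-sample values were not used.

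Of 22384 genes, 12144 averaged 1 RPKM or more across the 96 libraries and were kept, and 444 with no read in at least 24 of the 48 libraries were left out, a choice made after seeing the data. The remaining 11700 were fitted with limma 3.58.1 in R 4.3.3. Level and rhythm came from 1 fit with a 24 h cosine and sine per genotype, the rhythm difference from an F test of both interactions, and time-matched differences from a fit of 12 groups. Library depth was worked out from the lowest values, which the prior count sets. Tested on simulated data of 11700 genes, rhythm differences of 0.5 and 1 log2 were called for 44% and 81% of changed genes, and 0.0087% of unchanged genes were called. The simulated noise was independent between genes, so shifts shared by many genes of 1 mouse were absent. These shares therefore do not cover the rhythm calls above that moved with single mice.

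Named genes are those of the 3 clock lists, the 12 largest level calls in each direction at 5 RPKM or more, the 12 smallest p of the rhythm difference outside the clock lists, the 8 largest rhythms per genotype among differing genes at 10 RPKM or more, the 8 smallest p among genes with peaks at least 8 h apart, and up to 4 members per list plus those needed for a count. Members and lists were chosen with earlier results of these data known. Alternatives covered filters, scaling, the constant, the log scale, the model of time, a replicate block and left-out mice. Some genes that meet this rule are not reported here.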

Additional observations from a re-analysis of the deposited data

Results flagged for a closer look

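In groups of 4 mice, 12 of 168 tested (7.14%) held a mouse whose gap to the nearest other exceeded Dixon's critical share of the group's range; chance gives about 1 in 20. In EpiRE these were Dbp at ZT8 (mouse 4 at 65.4 RPKM, others 37.1 to 38.5), Per3 at ZT12 (mouse 1 at 20.8, others 13.1 to 14.1) and at ZT20 (mouse 4 at 4.60, others 6.20 to 6.35), and Cry1 at ZT0 (mouse 2 at 11.9, others 7.75 to 8.29). Also in EpiRE were Chaf1b at ZT20 (mouse 3 at 1.63 RPKM, others 2.48 to 2.66) and Ivl at ZT16 (mouse 3 at 42.2, others 18 to 20.6).

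In BRE they were Nr1d1 at ZT4 (mouse 3 at 5.02 RPKM, others 3.5 to 3.62), Per3 at ZT12 (mouse 1 at 1.87, others 2.17 to 2.23), Arntl at ZT12 (mouse 3 at 13.2, others 11.4 to 11.7) and Akr1c18 at ZT4 (mouse 1 at 2.06, others 0.629 to 0.705). Of the list means centred on both genotypes, the S phase genes had EpiRE ZT20 mouse 3 at -0.501 log2 (others -0.072 to 0.0143), and the differentiation genes had EpiRE ZT16 mouse 3 at 0.279 log2 (others -0.165 to -0.114).

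By the test of the interaction, the daily rhythm differed between the genotypes in 30 of 31 S phase genes (14.4% of all genes did). It differed in 11 of 27 differentiation genes and 12 of 28 oxidative phosphorylation genes. Without any 1 replicate number these counts were 29, 0 to 8 and 1 to 9.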

How the results depend on the processing

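The 165 level calls (61 higher, 104 lower) were 321 with no filter on low values (149 and 172), 76 at 5 RPKM or more (28 and 48), 88 on the log2(RPKM + 1) scale (30 and 58), 3008 at any size and 35 at 2-fold. They were 157 to 175 without any 1 mouse and 157 to 167 without any 1 replicate number. Rhythm calls moved more. EpiRE had 180 with no filter and 196 without the 5 deviating libraries, with 0 to 276 without any 1 replicate number. BRE had 3835 without the 5 libraries and 161 to 1756 without any 1 replicate number. The rhythm difference had 894 genes with time as a factor, 2703 without the 5 libraries, 395 to 1293 without any 1 replicate number, and 1236 (without BRE ZT16 mouse 2) to 2322 (without BRE ZT0 mouse 1) without any 1 mouse. The rhythm differences of Aloxe3, Ivl, Sbsn, Asprv1, Itga6, Cirbp, Rbm3, Hspa1a, Hspa1b, Hspa4l, Ndufv1, Cyc1, Atp5b, Ttk, Tmem57, Pfkm and Prdx1 were each lost without at least 1 replicate number (adjusted p up to 0.194) and kept without any 1 mouse. The cause was not tested. With a replicate block, level calls were 166, rhythm differences 1571, EpiRE rhythms 180 and BRE rhythms 1711. Mice of the same number correlated at -0.268 to 0.349 over 24 pairs (median 0.127, 14 over 0.1). With no values for mice of different numbers beside them, these do not settle whether the numbers pair mice. The time-matched counts without the 5 libraries were 483 at ZT0 (115 higher, 368 lower), 128 at ZT8 (59 and 69) and 652 at ZT12 (442 and 210); at ZT20 the constant removed at that time gave 20 higher and 30 lower, against 18 and 44.

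Depth was estimated, not stated, and limits weak genes. The removed constant depends on abundance, from 0.104 log2 at 1 to 2 RPKM to -0.004 log2 in the class that starts at 64 RPKM, so small level differences carry an error toward higher in weak genes and toward lower in abundant genes.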

Other observations

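Of 18 glycolysis genes, 4 differed in rhythm (14.4% of all genes did) and 9 were lower in EpiRE at any size (16.1%). The rhythm count was 2 without any 1 of EpiRE ZT4 mice 1 and 2 and ZT16 mice 3 and 4, and 0 to 2 without any 1 replicate number. The phosphofructokinase subunit Pfkm varied by 0.34 log2 with a peak at ZT3.45 in BRE and by 0.16 with a peak at ZT14.3 in EpiRE (limma adjusted p = 0.0108). Of 19 NRF2 targets, which encode antioxidant enzymes, 4 differed in rhythm, near the share of all genes (14.4%), among them the transketolase Tkt (0.33 with a peak at ZT2.25 in BRE, 0.19 with a peak at ZT15.2 in EpiRE, adjusted p = 0.000816) and the peroxiredoxin Prdx1 (0.33 against 0.09, adjusted p = 0.00467). Of 18 fasting and lipid oxidation genes, 9 were lower (16.1% of all genes were) and 1 higher (9.6%) at any size, with the acyl-CoA dehydrogenase Acadl at -0.46 ± 0.04 log2 (adjusted p = 2.27e-14).

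The hair follicle stem cell marker Lgr6 was the only member of its list of 18 to differ in rhythm (14.4% of all genes did). It varied by 0.99 ± 0.18 with a peak at ZT22.7 in BRE and by 0.48 with a peak at ZT12.1 in EpiRE (adjusted p = 0.000416). It was 0.90 log2 higher in EpiRE at ZT12 (adjusted p = 0.00296).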
